A study of Rattus norvegicus with 36 samples.

Results

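Genes that mark neutrophils or their granules were followed in the lung of rats given crystalline silica, 7 in all: S100a8, S100a9, Csf3r, Mpo, Camp, Fpr1 and Fpr2. Earlier results of these data were known when the 7 were chosen. Their array probes were taken by name, as those, control spots aside, whose gene name is 1 of these 7. The rule found 9 probes for the 7 genes, of 45598 probes and 25597 gene names on the array, and all 7 genes were among the 23940 that passed the filter on low signals. S100a8 and S100a9 rose at D30 and D180, and S100a9 had the largest difference of the 7 at both times. Csf3r rose at D1 and D180. With scan date in the model as a fixed block, Csf3r at D1 and S100a8 at D30 no longer passed the test. With slide as one, none of the 7 passed it at D180. Mpo, Camp and Fpr2 passed the test at no time point, and Fpr1 was lower in exposed rats at D30 and D180 by less than 2-fold, a difference that lost its adjusted p when slide or scan date entered the model as a fixed block.

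The rats were female Sprague Dawley, 13 weeks old at instillation. Exposed rats received DQ-12, a crystalline silica (quartz) preparation, at 10 mg/rat into the trachea, and control rats received the vehicle. Lungs were taken 1, 30 or 180 days later (D1, D30 and D180), with 6 vehicle and 6 DQ-12 rats per time point, 36 in all. RNA came from the accessory lobe, a small lobe of the right lung, so each value is a mixture of all its cells, blood cells included.

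Neutrophils are the short-lived granulocytes that enter the lung early when particles or microbes reach it. They are loaded in the bone marrow with granules made in a fixed order: azurophil granules, which hold myeloperoxidase, are made first, and specific and gelatinase granules later. The mRNAs for azurophil proteins are largely switched off before the cell leaves the marrow, whereas S100a8, S100a9 and surface receptor mRNAs remain abundant in the mature cell.

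Each level below is a normalized log2 signal of 1 rat's array. A difference of 1 on that scale is a 2-fold difference. A gene was called when the fold change was at least 2 and the adjusted p (limma, Benjamini-Hochberg over all 23940 genes) was under 0.05. Levels of different probes are on different scales and are not compared with each other. In whole lung tissue, fewer cells of a type and less RNA per cell cannot be told apart.

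The arrays showed 61.0% to 80.6% of spots well above background, and arrays of a group correlated with an r of 0.956 to 0.989. The probes used for S100a8, S100a9, Csf3r, Camp and Fpr1 were well above background on all 36 arrays. The Fpr2 probe was so on 18 arrays and the Mpo probe on 9. At D1, all 6 DQ-12 arrays and 1 vehicle array shared a scan date while the other 5 vehicle arrays were scanned on 2 other dates, so most of that comparison runs across scan dates. The D30 arrays fell on 2 scan dates and the D180 arrays on 6, and differences within the scan dates that held both groups are given beside the results.

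S100a8 and S100a9 encode the 2 subunits of calprotectin, a calcium- and zinc-binding protein that makes up a large share of neutrophil cytosol and acts outside the cell as a danger signal. The genes are neighbours on chromosome 2, with 22717 bases and 0 annotated genes between them in the GRCr8 assembly. The nearest other probe on the array differed at 29 of 60 bases from each of theirs. The 2 probe sequences are shown because the largest responses rest on them. The S100a8 probe lies at chr2:182962328-182962387 and the S100a9 probe at chr2:182987647-182987706 in rn4, the build that the array headers name.
S100a8: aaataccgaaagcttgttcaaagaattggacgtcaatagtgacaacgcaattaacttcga
S100a9: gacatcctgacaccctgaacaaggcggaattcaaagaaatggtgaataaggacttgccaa

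At D1 the S100a9 level ran from 12.35 to 13.54 in vehicle rats (median 12.66) and from 12.71 to 13.93 in DQ-12 rats (median 13.22). The groups overlapped, with 1 of 6 DQ-12 rats above all vehicle rats. The difference of 0.40 (SE 0.25, n = 6 per group) did not pass the test (limma, adjusted p = 0.314, 95% interval -0.12 to 0.91). Within the scan date that held both groups it was 0.87, with all 6 DQ-12 rats above the 1 vehicle rat.

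At D30 the vehicle rats lay between 12.04 and 13.41 (median 12.58) and the DQ-12 rats between 13.84 and 15.53 (median 14.64). Every DQ-12 rat was above every vehicle rat, a pattern that 1.81% of all genes showed at D30. S100a9 rose by 1.93 (SE 0.25, 3.82-fold, limma adjusted p = 4.84e-06).

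At D180 the vehicle rats ran from 12.39 to 13.25 (median 12.69). The DQ-12 rats ran from 15.17 to 15.66 (median 15.29), again above all vehicle rats, as were 3.82% of all genes. S100a9 rose by 2.57 (SE 0.25, 5.93-fold, limma adjusted p = 4.88e-09). The DQ-12 rats had an SD of 0.19 at D180 against 0.62 at D30 (n = 6 each).

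S100a8 differed in the same direction. At D1 the vehicle rats ran from 11.55 to 12.76 (median 11.85) and the DQ-12 rats from 11.83 to 13.21 (median 12.39), and they overlapped, with a difference of 0.38 (SE 0.24, limma adjusted p = 0.328, 95% interval -0.12 to 0.87). At D30 the vehicle rats ran from 11.49 to 12.48 (median 11.91) and the DQ-12 rats from 12.61 to 13.75 (median 12.89).

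The D30 groups did not overlap, and S100a8 rose by 1.096 (SE 0.24, 2.14-fold, limma adjusted p = 0.00604). Leaving out DQ-12 rat 1 of D30 brought that difference to 0.95, under the 2-fold limit, and with scan date as a fixed block it was 1.00 (adjusted p = 0.0585). At D180 the vehicle rats ran from 11.26 to 12.49 (median 11.77) and the DQ-12 rats from 12.97 to 13.84 (median 13.30), with no overlap and a rise of 1.56 (SE 0.24, 2.95-fold, limma adjusted p = 1.68e-05).

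Within scan dates, S100a9 differed by 1.71 and 2.19 at D30 and by 2.47 and 2.10 at D180, and S100a8 by 0.66 and 1.20 at D30 and by 1.41 and 1.09 at D180. In each of these scan dates every DQ-12 rat was above every vehicle rat of that date for both genes. The D1 value for S100a8 within the shared scan date was 0.86. At D180 only 1 slide held both groups, and with slide as a fixed block neither gene was called (S100a9 at 1.96, adjusted p = 0.0505, and S100a8 at 0.49, adjusted p = 0.806).

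S100a8 has a second probe, made to an expressed sequence tag whose coordinates run in the opposite order to those of the main probe, so the strand it reads is not settled here. It too was well above background on all 36 arrays. The second probe was tested in a separate fit of all named probes that passed the filter, with p adjusted over those probes. Its differences were 0.87 at D1 (limma adjusted p = 0.0314), 1.07 at D30 (adjusted p = 0.0239) and 1.99 at D180 (adjusted p = 2.92e-06). It was called at D30 and D180, as was the main probe, and at D1 its difference was larger than the main probe's but under 2-fold.

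**Figure D1:**
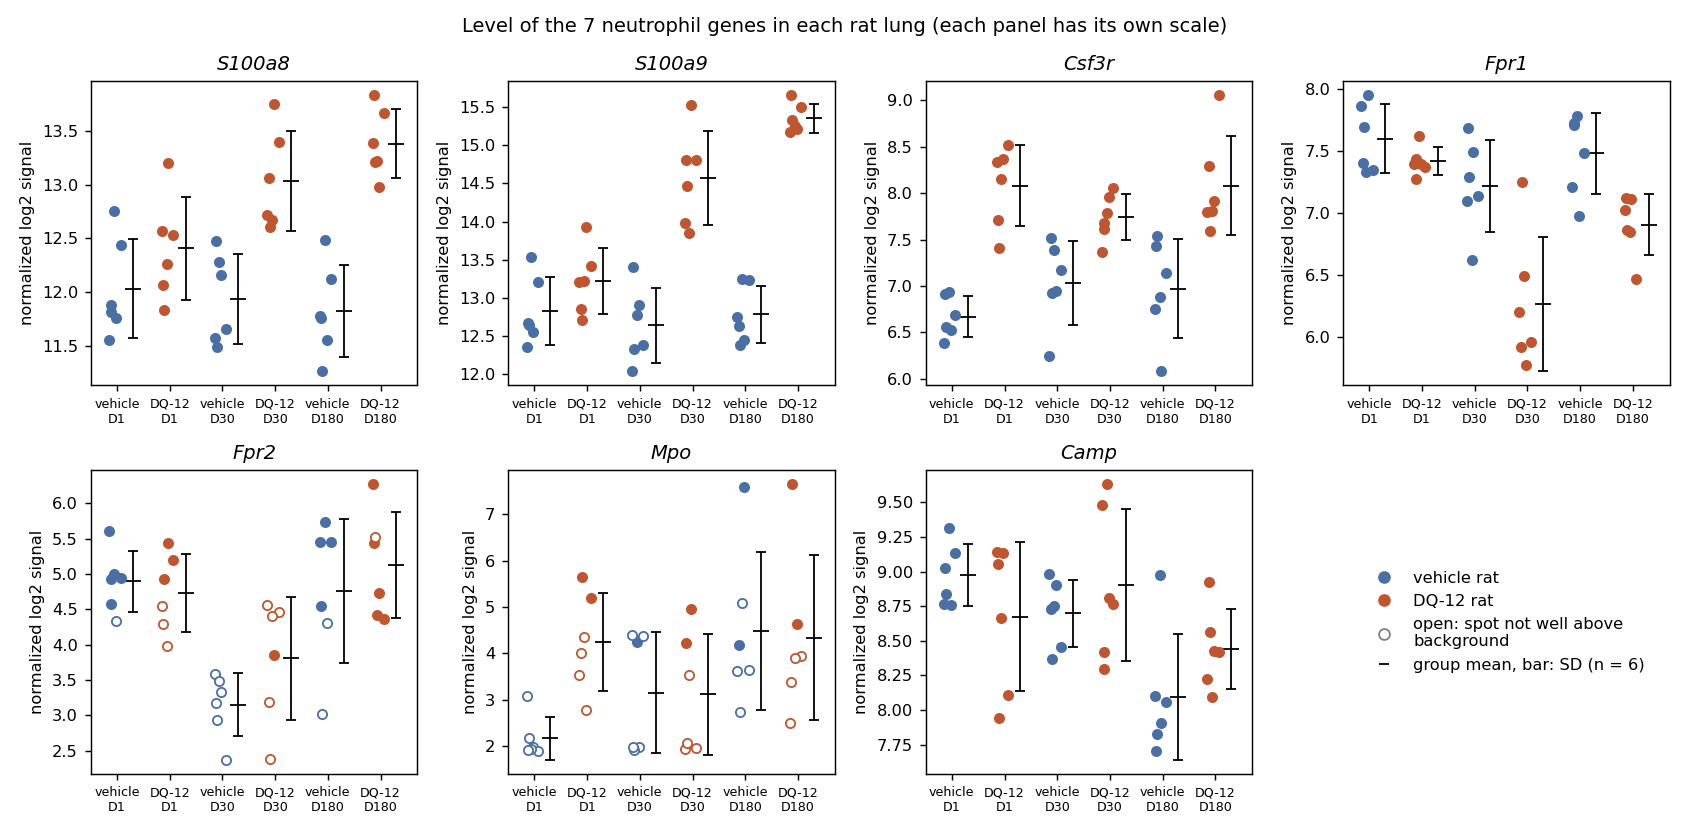
Normalized log2 signal (y axis, a separate scale per panel) of each of the 7 genes in every rat, by group (x axis). Filled points are spots well above background, open points are not, and the bar beside each group is the mean with its SD (n = 6). S100a9 in DQ-12 rats lies above 13.8 at D30 and above 15.1 at D180, clear of every vehicle rat.

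The 2 genes moved together from rat to rat. After each rat's group mean was taken away, S100a8 and S100a9 correlated with a Pearson r of 0.919 (Spearman rho 0.905) over 36 arrays, and with 0.901 after the 2 arrays farthest from the median of S100a8 were left out. Each was the other's closest match among 23735 genes. The r was 0.954 over vehicle rats and 0.885 over DQ-12 rats. These arrays share the tissue piece, the RNA and the labelling, so the values are a description with no test. The next genes by this measure were Chrna5 (r = 0.627 with S100a8, well above background on 1 array), Csta (0.615), an inhibitor of cysteine proteases, and, for S100a9, Lrg1 (0.590), a granule glycoprotein that the liver also secretes.

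With the main probes, the rise was not equal in both genes. S100a9's difference exceeded that of S100a8 by 0.02 at D1, by 0.84 at D30 and by 1.01 at D180. This quantity was chosen after the values were seen, so the p-values given for it are a description and no independent test. In vehicle rats, the S100a9 minus S100a8 value, taken relative to the vehicle mean of the day, stayed between -0.24 and 0.23 at D30 and between -0.19 and 0.17 at D180. In DQ-12 rats it was 0.47 to 1.16 at D30 and 0.82 to 1.28 at D180, above all vehicle rats in 6 of 6 at both times (exact permutation test, 2-sided, p = 0.00216 each, the smallest that 6 against 6 allows). At D1 the exact permutation p was 0.669. Within scan dates the values were 1.05 and 0.99 at D30 and 1.07 and 1.01 at D180.

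The result depends on the S100a8 probe. With its second probe in place of the first, the value was -0.47 at D1 (exact permutation p = 0.00649), 0.86 at D30 and 0.57 at D180, where 3 of 6 DQ-12 rats exceeded the highest vehicle rat (exact permutation p = 0.0152). A value within an array shows an unequal difference between 2 probes, which can also differ in their response to the amount of RNA. That was not tested.

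**Figure D2:**
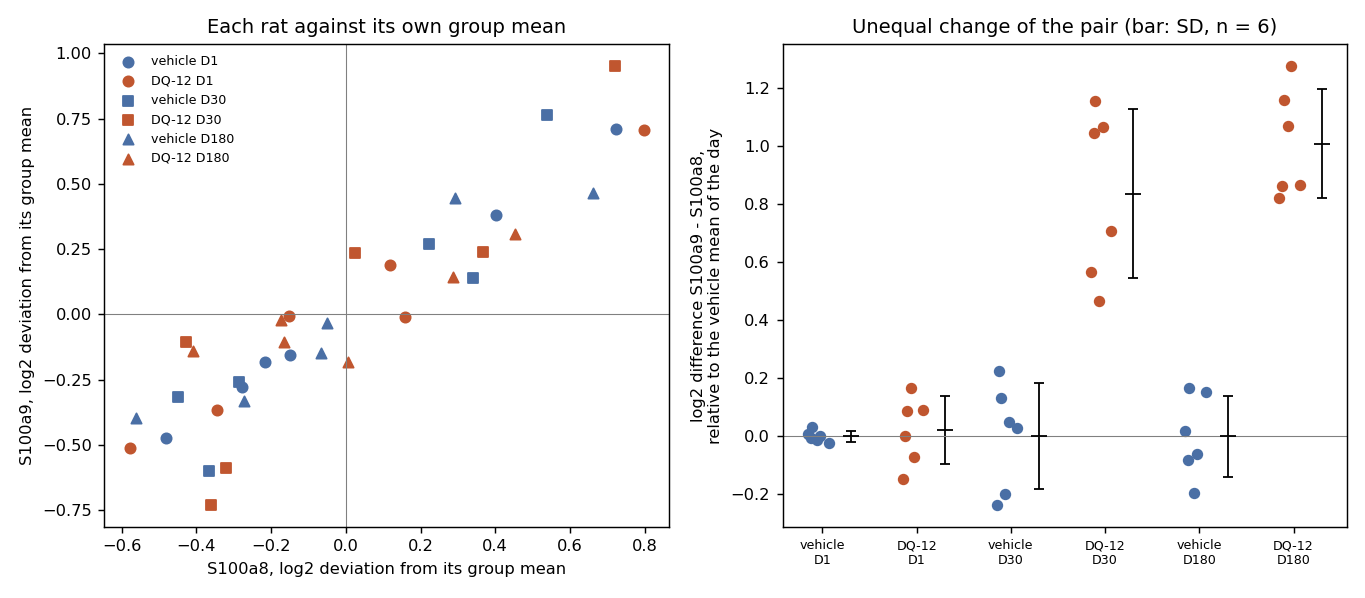
Left, the deviation of each rat from its group mean in log2 signal for S100a8 (x axis) and S100a9 (y axis), with groups by colour and shape. Right, the log2 difference S100a9 minus S100a8 relative to the vehicle mean of the day, with the group mean and SD (n = 6), which lies at 0.84 in DQ-12 rats at D30 and at 1.01 at D180.

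The S100a9 promoter is printed because this gene responded most. The 250 bases before its annotated start in the RefSeq table (GRCr8, minus strand) are at chr2:178490623-178490872, and capitals mark the matches to 3 motifs searched on both strands. TATAAA is the TATA box, TTNNGNAA holds the core letters of C/EBP sites and GAGGAA those of PU.1 sites. C/EBP and PU.1 factors are known for driving granulocyte genes.
S100a9 promoter: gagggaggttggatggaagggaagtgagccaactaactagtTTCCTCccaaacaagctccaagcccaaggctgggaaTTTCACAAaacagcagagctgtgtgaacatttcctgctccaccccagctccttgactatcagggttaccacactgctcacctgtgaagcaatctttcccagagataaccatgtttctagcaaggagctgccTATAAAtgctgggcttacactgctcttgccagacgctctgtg
TATAAA begins 42 bases before the start on the gene's strand, and the other 2 matches, on the opposite strand, lie 173 and 209 bases before it. The table holds 6 of the 7 genes, S100a8 being the one it lacks. Of those 6, TATAAA was found in 2, TTNNGNAA in 5 and GAGGAA in 5, against 12.9%, 37.2% and 23.3% of 33469 promoters of the same length. For Mpo and Fpr1 the 250 bases lie inside the annotated span of the gene, and for Csf3r partly inside it. The start used for these genes was therefore not the outermost one. A match is a stretch of letters and not a measured site.

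Csf3r encodes the receptor for G-CSF, the growth factor that drives neutrophil production and survival, and its mRNA is held by the neutrophil lineage and some monocytes. The probe lies at chr5:145393491-145393550 in rn4 and is shown because it carries the D1 result. The nearest other probe differed from it at 30 of 60 bases. A probe of LOC102555286 shares a stretch of at least 15 bases with it on either strand, and the effect of that was not tested.
Csf3r: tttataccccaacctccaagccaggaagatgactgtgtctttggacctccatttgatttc

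At D1 Csf3r ran from 6.39 to 6.94 in vehicle rats (median 6.62) and from 7.41 to 8.52 in DQ-12 rats (median 8.24). No DQ-12 rat overlapped a vehicle rat, as was so for 5.23% of all genes in that direction. Csf3r rose by 1.41 (SE 0.24, 2.67-fold, limma adjusted p = 7.68e-05), the 1 of the 7 genes that was called at D1, where 3.07% of all genes were called and 2.02% were called higher. Within the shared scan date the difference was 1.69, but with scan date as a term in the model, which leaves 1 vehicle rat to carry it, the adjusted p was 0.0753.

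At D30 the vehicle rats ran from 6.24 to 7.52 (median 7.06) and the DQ-12 rats from 7.37 to 8.05 (median 7.73). Of the DQ-12 rats 5 of 6 were above all vehicle rats, and the difference of 0.71 (SE 0.24) did not pass the test (limma, adjusted p = 0.0905, 95% interval 0.23 to 1.20). At D180 the ranges were 6.08 to 7.54 (median 7.01) and 7.60 to 9.06 (median 7.86), without overlap.

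Csf3r rose by 1.11 at D180 (SE 0.24, 2.16-fold, limma adjusted p = 0.000956). The highest DQ-12 rat stood well above the other 5, and without it (DQ-12 rat 2 of D180) the difference was 0.91, under the 2-fold limit. Leaving out vehicle rat 1 of D180 also ended the call, as did normexp background correction (0.81) and slide as a fixed block (1.04, adjusted p = 0.446). Within scan dates the differences were 0.48 and 0.95 at D30 and 1.69 and 0.46 at D180.

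From rat to rat, Csf3r went with Fcar (r = 0.823 over 36 arrays), the Fc receptor for IgA, with Lilrb3a (0.751), an inhibitory receptor of myeloid cells, and with RGD1562625 (0.742), annotated as similar to a killer activatory receptor. Its r with S100a8 was 0.502 and with S100a9 0.50, ranks 31 and 40 of 23735 genes.

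Fpr1 and Fpr2 encode receptors for formylated peptides, which bacteria and damaged mitochondria release and which draw neutrophils and monocytes towards them.

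Fpr1 was the 1 of the 7 genes that passed the adjusted p in the lower direction. At D1 the vehicle rats ran from 7.33 to 7.95 (median 7.55) and the DQ-12 rats, from 7.28 to 7.62 (median 7.39), overlapped them. The difference was -0.18 (SE 0.19, limma adjusted p = 0.585), and within the shared scan date it was -0.45, with all 6 DQ-12 rats below the 1 vehicle rat.

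At D30 the vehicle rats ran from 6.62 to 7.69 (median 7.21) and the DQ-12 rats from 5.77 to 7.25 (median 6.08), with 5 of 6 DQ-12 rats below all vehicle rats. Fpr1 was 0.95 lower on the log2 scale in DQ-12 rats (difference -0.95, SE 0.19, limma adjusted p = 0.00242), past the adjusted p but not the 2-fold limit. At that adjusted p alone, 1.24% of all genes were lower at D30.

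At D180 the ranges were 6.97 to 7.78 (median 7.60) and 6.47 to 7.12 (median 6.94). Of the DQ-12 rats 3 of 6 lay below all vehicle rats, and the difference was -0.57 (SE 0.19, limma adjusted p = 0.0365), again under 2-fold, with 9.01% of all genes lower at that adjusted p. Within scan dates the differences were -0.15 and -0.79 at D30 and -0.45 and -0.63 at D180. The 1 DQ-12 rat of D30 that overlapped the vehicle rats, at 7.25, was also the 1 scanned with the 4 vehicle rats of that date. With scan date as a fixed block the D30 difference was -0.56 (adjusted p = 0.135) and with slide as one -0.55 (adjusted p = 0.0877), while with either as a random block it stayed past the adjusted p. At D180 the same fits gave -0.50 (adjusted p = 0.0866) and -0.67 (adjusted p = 0.404), and the D180 difference was no longer past the adjusted p in 7 of 36 fits that left out 1 rat, each of them a D180 rat. With normexp background correction the differences were -0.58 at D30 and -0.39 at D180, both past the adjusted p.

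Over the 36 arrays, the genes that went most with Fpr1 were Bloc1s5 (r = 0.751), a subunit of a complex that shapes lysosome-related organelles, Dcn (0.705), a matrix proteoglycan, and Mprip (0.699), a regulator of myosin phosphatase.

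The Fpr2 probe has a close copy on the array. The RefSeq table lists Fpr2l as another name of Fpr2, and the array holds a probe under each name. The 2 probes are shown because they differ at 6 of 60 bases, given in capitals, so transcripts of related formyl peptide receptors could bind to both. The Fpr2 probe lies at chr1:56623812-56623871 in rn4.
Fpr2: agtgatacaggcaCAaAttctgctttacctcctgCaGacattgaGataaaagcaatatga
Fpr2l: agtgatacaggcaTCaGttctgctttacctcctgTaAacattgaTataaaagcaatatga

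Fpr2 levels in vehicle rats ran from 4.34 to 5.61 at D1 (median 4.93), from 2.37 to 3.59 at D30 (median 3.26) and from 3.02 to 5.73 at D180 (median 5.00). In DQ-12 rats they ran from 3.98 to 5.44 at D1 (median 4.73), from 2.38 to 4.57 at D30 (median 4.13) and from 4.36 to 6.28 at D180 (median 5.09). The groups overlapped at each time, and the spot was well above background on 5, 0 and 4 of the 6 vehicle arrays and on 3, 1 and 5 of the 6 DQ-12 arrays at D1, D30 and D180.

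The differences of Fpr2 were -0.17 at D1, 0.66 at D30 and 0.37 at D180 (SE 0.40 each), with limma adjusted p of 0.837, 0.457 and 0.613. The interval at D30, -0.16 to 1.48, includes differences of over 2-fold. Within scan dates they were -0.88 at D1, with all 6 DQ-12 rats below the 1 vehicle rat, -0.58 and 0.56 at D30, and -0.04 and 0.06 at D180. The Fpr2l probe, well above background on all 36 arrays, differed by 0.04, -0.32 and -0.02 (limma adjusted p = 0.951, 0.629 and 0.970). Of the 5 other formyl peptide receptor genes listed, 4 were tested, and 0 were called at D1, D30 or D180, with medians of 0.04, 0.09 and 0.26.

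Fpr2 was the 1 member with a called difference between consecutive time points in vehicle rats. Set against the lowest signal of any kept probe that was well above background on the D30 arrays, it was 2.06-fold higher at D1 and 1.87-fold higher at D180. These 2 values are approximate and not true minimums for this probe. Its spot in DQ-12 rat 5 of D180, at 5.52, was not well above background. Of the 6 vehicle spots, 5 at D1 and 4 at D180 were themselves well above background. The measured differences were -1.75 for D30 minus D1 (limma adjusted p = 0.00791) and 1.60 for D180 minus D30 (adjusted p = 0.00802), where 2.75% and 2.71% of all genes were called. No scan date or slide held 2 time points, so day and batch cannot be told apart here. From rat to rat Fpr2 went most with Abcb10 (r = 0.769 over 36 arrays), a mitochondrial transporter, and with LOC102547606 (0.758) and Olr752 (0.737), an olfactory receptor gene, at a signal that was not well above background on 18 arrays.

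Mpo encodes myeloperoxidase, the azurophil granule enzyme that makes hypochlorous acid, and its mRNA is a mark of promyelocytes in the marrow. Its signal was near background. At D1 the vehicle rats ran from 1.90 to 3.09 (median 1.95), none of them well above background. The DQ-12 rats ran from 2.77 to 5.65 (median 4.18), and 2 of them were well above background.

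At D1 5 of 6 DQ-12 rats exceeded the highest vehicle rat. The measured difference was 2.08 (SE 0.75), and it missed the threshold (limma, adjusted p = 0.0540; exact permutation test, 2-sided, p = 0.00433). Within the shared scan date, which held the highest vehicle rat, it was 1.16. With normexp background correction it was 0.40 (adjusted p = 0.261).

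At D30 Mpo ran from 1.92 to 4.40 in vehicle rats (median 3.12) and from 1.94 to 4.95 in DQ-12 rats (median 2.80). At D180 it ran from 2.73 to 7.58 (median 3.92) and from 2.502 to 7.66 (median 3.92). The groups overlapped over most of their range, with differences of -0.04 and -0.14 (SE 0.75 each, limma adjusted p = 0.997 and 0.942). Within scan dates they were -0.50 and -1.002 at D30 and -1.73 and 4.01 at D180. One vehicle rat and 1 DQ-12 rat at D180 had levels above 7.5, far from the rest of their groups. The interval at D180, -1.66 to 1.39, includes differences of over 2-fold either way. The genes that went most with Mpo were Mastl (r = 0.760 over 36 arrays), a mitotic kinase that was well above background on 8 arrays, Inhba (0.748), a subunit of activin, and LOC102556599 (0.730). Without the 2 arrays farthest from the median of Mpo the last 2 came to 0.519 and 0.568.

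Camp encodes cathelicidin, an antimicrobial peptide precursor stored in specific granules. The main probe was well above background on all arrays and showed little difference. Vehicle rats ran from 8.76 to 9.32 at D1 (median 8.93), from 8.37 to 8.99 at D30 (median 8.74) and from 7.70 to 8.97 at D180 (median 7.98). DQ-12 rats ran from 7.94 to 9.14 at D1 (median 8.86), from 8.30 to 9.64 at D30 (median 8.78) and from 8.10 to 8.93 at D180 (median 8.42).

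The Camp groups overlapped at each time. The differences were -0.30, 0.20 and 0.35 (SE 0.23 each, limma adjusted p = 0.423, 0.781 and 0.354), and the 95% intervals, -0.77 to 0.17, -0.27 to 0.67 and -0.12 to 0.82, exclude a 2-fold difference. Within scan dates the differences were -0.09 at D1, -0.19 and 0.13 at D30, and 0.03 and 0.51 at D180. Camp also has a second probe, again with coordinates in the opposite order, which was well above background on 2 of 36 arrays. Glipr1 went most with Camp from rat to rat (r = 0.739 over 36 arrays), followed by Ly49si2 (0.664), a killer cell receptor gene, and Cbx5 (0.62), a heterochromatin protein. Camp's r was 0.385 with S100a8 and 0.139 with S100a9.

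**Figure D3:**
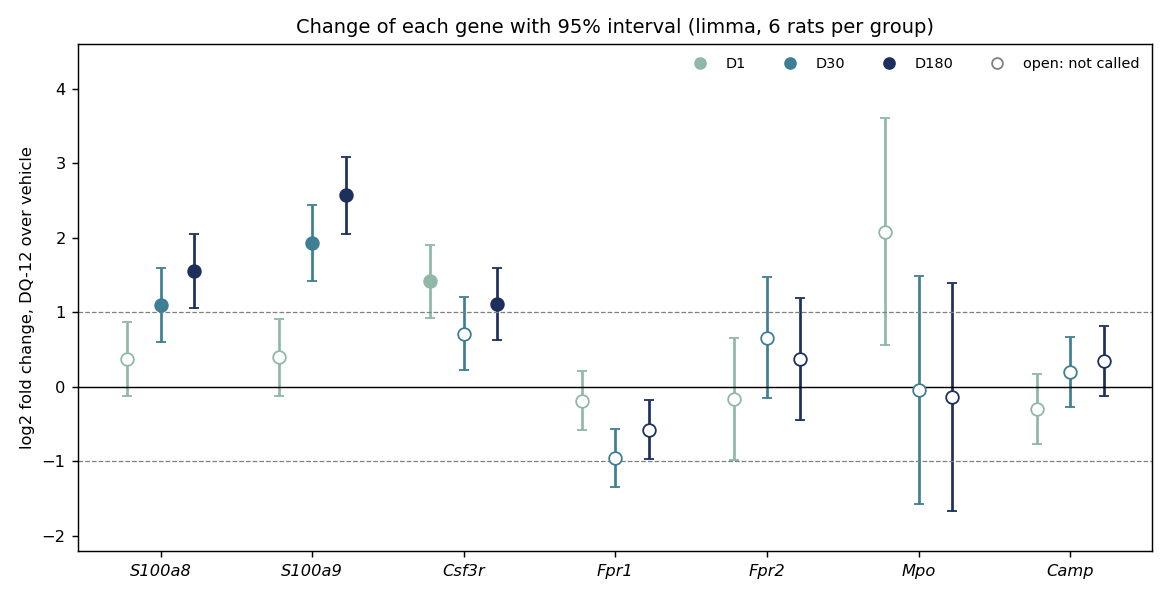
Log2 fold change of DQ-12 over vehicle (y axis) for each gene at D1, D30 and D180, with 95% intervals from limma (6 rats per group). Filled points were called and dashed lines mark 2-fold. S100a8 and S100a9 were called at D30 and D180, Csf3r at D1 and D180, and the Mpo intervals are the widest.

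In all, 1, 2 and 3 of the 7 genes were called at D1, D30 and D180, each time higher. The share of all genes called was 1.05% at D30 (0.915% higher) and 3.63% at D180 (2.85% higher). As the 7 were chosen with earlier results of these data known, the counts are a description with no test. The median difference of the 7 genes was 0.38, 0.66 and 0.37, against -0.01, -0.02 and -0.03 over all genes tested.

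The difference between DQ-12 and vehicle rats was also compared between time points. The S100a9 difference was larger at D30 than at D1 by 1.54 (SE 0.36, limma interaction, adjusted p = 0.0156), where 0.944% of all genes were called. That call was lost with slide or scan date as a fixed block and with scan date as a random block, and the D1 difference in it was 0.40 over all rats but 0.87 within the shared scan date. From D1 to D180 the difference grew by 2.17 for S100a9 (SE 0.36, adjusted p = 0.000304) and by 1.18 for S100a8 (SE 0.35, adjusted p = 0.0424), where 1.55% of all genes were called. Both calls were lost with slide or scan date as a fixed block, and the S100a8 call was also lost in 15 of 36 fits that left out 1 rat. Between D30 and D180 no member's difference was called (0.134% of all genes were). For Csf3r no difference between time points was shown: D30 minus D1 was -0.70 (SE 0.34, adjusted p = 0.302) and D180 minus D1 -0.30 (SE 0.34, adjusted p = 0.682).

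Within DQ-12 rats, S100a9 was 1.35 higher at D30 than at D1 (limma adjusted p = 0.000211), while Fpr1 was lower (difference -1.15, adjusted p = 6.88e-05) in that comparison. 4.88% of all genes were called in it. The measured Fpr2 level was 1.32 higher at D180 than at D30 (adjusted p = 0.0188), where 3.52% were called, but the spot was well above background on 1 of 6 arrays at D30 and 5 of 6 at D180. Vehicle rats showed no called difference between consecutive time points for S100a8, S100a9, Csf3r, Mpo, Camp or Fpr1. The order of the S100a9 groups was vehicle D30, vehicle D180, vehicle D1, DQ-12 D1, DQ-12 D30 and DQ-12 D180, and the step from DQ-12 D1 to DQ-12 D30 was the 1 step between neighbours that was called. As above, days and scan dates cannot be told apart in such level differences.

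Around the 7 genes, 52 other neutrophil genes were listed by role, of which 50 were tested. At D1 6 of them were called, at D30 8 and at D180 18, all higher, which is 12%, 16% and 36% of the 50. Their median differences were 0.23, 0.33 and 0.78. Over all genes 2.02%, 0.915% and 2.85% were called higher. The lists were chosen with earlier results of these data known. The 50 include 8 growth factors and attractants, listed for acting on neutrophils rather than for marking them. Of these 8, 1, 4 and 4 were called at D1, D30 and D180. 
Among 5 azurophil granule genes, 0 were called at D1 and 1 at D30 and D180. That was RatNP-3b, a rat defensin, which rose by 1.39 at both times (limma adjusted p = 0.0277 and 0.00740). Elane, neutrophil elastase, was well above background on 0 of 36 arrays. Bpi and Defa5, also of this list, were so on 5 each. The medians of the azurophil list, -0.07, 0.09 and 0.23, include these dim probes, which could hide a change.

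Of 9 specific and gelatinase granule genes, 2, 1 and 4 were called. Cd177, a surface and granule glycoprotein of neutrophils, rose by 1.23 at D1, 3.19 at D30 and 2.83 at D180, and every DQ-12 rat was above every vehicle rat at all 3 times (limma adjusted p = 0.000107, 4.97e-12 and 1.70e-11). Lcn2, the iron-trapping lipocalin that epithelium also makes, rose by 4.61 at D1 and 4.69 at D180 but had an SD of 1.77 to 2.49 within groups. Its D30 difference of 1.74 did not pass the test (adjusted p = 0.576). Mmp9 (gelatinase B) rose by 2.00 and Olfm4 by 1.09 at D180, and Ltf (lactoferrin) was well above background on 0 of 36 arrays.

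Of 15 surface receptor genes, 3, 2 and 7 were called. Il1r2, the decoy receptor for interleukin 1, rose by 2.98, 2.15 and 2.32 at D1, D30 and D180 without overlap between groups. Clec4e, a receptor for fungal and dead-cell ligands, was at least 1.62-fold higher at D1 and at least 3.08-fold higher at D180. Its partner Clec4d rose by 1.07 at D1, and Trem1, an amplifier of myeloid activation, by 1.15 at D30. Itgam, the integrin CD11b, rose by 2.19 at D180. Cxcr2, the chemokine receptor that brings neutrophils into tissue, rose by 1.55 at D180 (limma adjusted p = 0.000789), its differences at D1 and D30 being 0.47 and 0.83 (adjusted p = 0.367 and 0.173).

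The 8 genes of the oxidase and its signalling had 0, 0 and 2 called. Ncf1 and Ncf4, cytosolic subunits of the NADPH oxidase, rose by 1.29 and 1.01 at D180. Of 5 granulocyte transcription factors 0 were called at D1, D30 or D180. Cebpe, which drives specific granule genes in the marrow, differed by 0.17, 0.30 and 0.47 (limma adjusted p = 0.697, 0.634 and 0.204).

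Of 8 neutrophil growth factors and attractants, 1, 4 and 4 were called. Cxcl2 rose by 1.34, 1.76 and 1.99 at D1, D30 and D180. At D30 Cxcl6 rose by 2.84, Cxcl3 by 1.28 and Cxcl1 by 1.17. At D180 Cxcl6 rose by 3.48 and Cxcl3 by 1.23, and Il17a was at least 1.71-fold higher. Csf3, which encodes the ligand of Csf3r, differed by 0.40, 0.97 and -0.18 and did not pass the test (limma adjusted p = 0.605, 0.268 and 0.857).

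**Figure D4:**
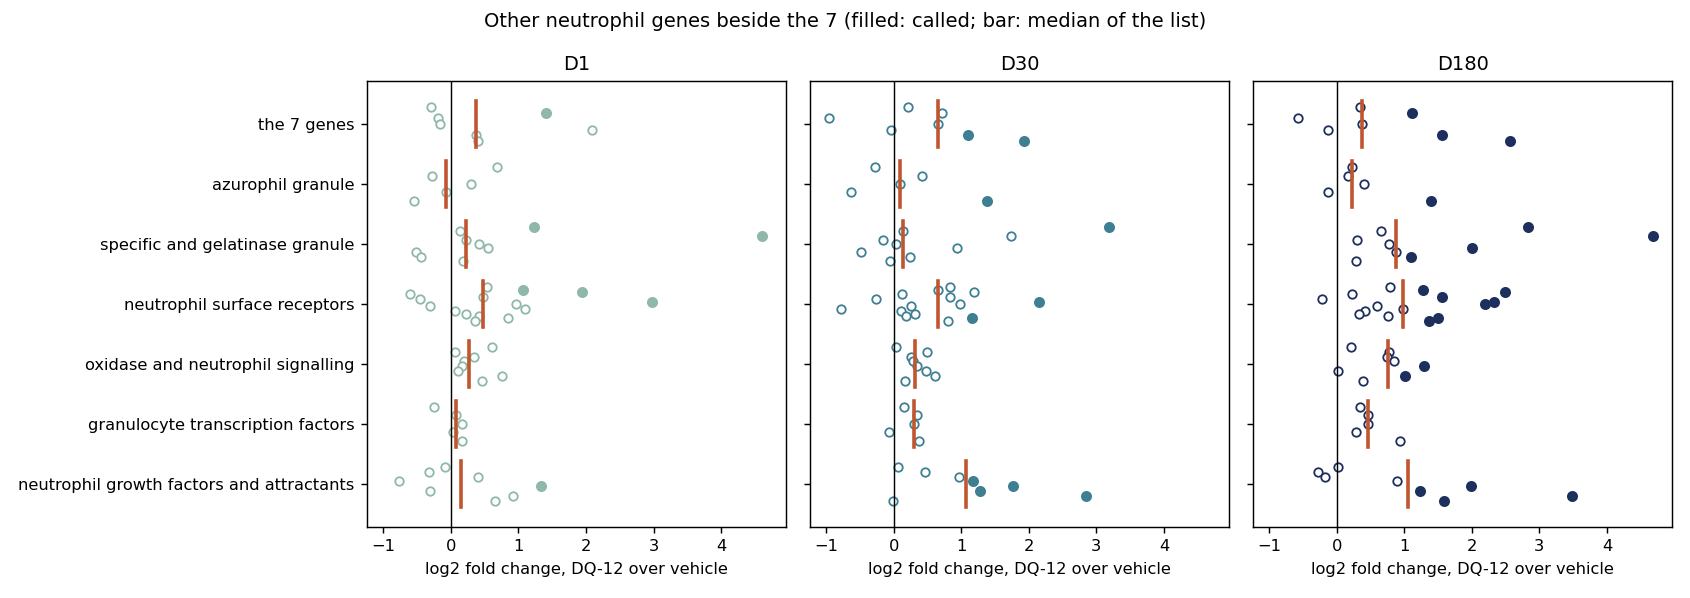
Log2 fold change of DQ-12 over vehicle (x axis) for the 7 genes and for 50 other neutrophil genes by role (y axis), at D1, D30 and D180. Each point is a gene, filled where called, and the bar is the median of the list. The azurophil granule list, in which Elane, Bpi and Defa5 were near background, has medians of -0.07, 0.09 and 0.23. The receptor list holds 7 called genes at D180.

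Of the 14 other S100 genes 0 were called at D1 and D30, and at D180 1 was, S100b, a protein of Schwann and other cells, which fell by 1.18 (limma adjusted p = 0.00645). Over all genes 3.07%, 1.05% and 3.63% were called. At the adjusted p alone 5, 0 and 7 of the 14 passed at D1, D30 and D180 (4 higher and 1 lower at D1, 3 higher and 4 lower at D180), against 16.2%, 3.98% and 16.8% of all genes. Their medians were 0.19, 0.06 and 0.11.

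Markers of other cells moved at the same times. Of 10 monocyte and macrophage markers, 0, 3 and 4 were called, all higher: Marco, Siglec1 and Cd68 at D30 and those with Cd14 at D180, where Cd68 rose by 1.55. Over all genes 2.02%, 0.915% and 2.85% were called higher. Marco, a scavenger receptor, was well above background on 0 of 6 vehicle arrays and 4 of 6 DQ-12 arrays at D30 and was at least 3.01-fold higher. At D180 the log2 of the 10 markers' summed level was 18.23 to 18.25 in vehicle and 18.28 to 18.53 in DQ-12 rats. The groups overlapped in it at D1 and D30. A sum of signals follows the brightest genes of a list most, so it does not measure the number of cells. Monocytes share several of the genes above, among them S100a8, S100a9, Csf3r and Fpr1.

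All 4 cell division genes were called at D1 and D180, and 0 at D30, where 3.07%, 3.63% and 1.05% of all genes were. At the adjusted p alone 3 of the 4 were higher at D30, against 3.98% of all genes in either direction. The summed level of the 4 ran from 10.54 to 11.21 in vehicle and from 12.37 to 13.38 in DQ-12 rats at D1, and from 9.83 to 10.58 and 11.33 to 11.90 at D180. The mast cell and basophil list had 1 of 5 called, Tpsab1, which rose by 1.57 at D180, with summed levels of 9.37 to 10.59 in vehicle and 9.90 to 11.55 in DQ-12 rats. At the adjusted p alone 4 of the 5 were higher at D180, against 16.8% of all genes in either direction. Of 6 red cell markers 2 were called lower at D180, Ahsp (which fell by 1.08) and Slc4a1 (which fell by 1.06). At the adjusted p alone 3, 3 and 6 of the 6 were lower at D1, D30 and D180, as were 8.62%, 1.24% and 9.01% of all genes. Their summed level at D180 ran from 17.96 to 18.26 in vehicle and from 17.73 to 17.93 in DQ-12 rats. Of the eosinophil, platelet, B and T cell, lung and squamous epithelium markers 0 were called at D1, D30 or D180. The part of these other cells in the levels of the 7 genes was not tested.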

How the data were processed

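RNA of 36 lungs was hybridized to 1 single-color (Cy3) Agilent array each. The deposited array files, which the authors made in Feature Extraction (version 12.0.1.1), give an intensity per spot before and after background correction, and deposited spot flags (well above background, saturated, outlier). The authors' deposited table of log2 values, scaled to the 75th percentile and centered per probe as far as the values show, was an alternative. Its direction was that of the arrays (r = 0.995 with the log2 intensity treated that way).

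Here the log2 of the background-corrected intensity was used. Outlier spots were left out, spots of a probe averaged, and probes kept if above the 95th percentile of negative controls on at least 6 arrays, then quantile normalized. The probe with the highest mean signal stood for a gene. A model with 6 group means was fitted in limma 3.58.1 (R 4.3.3) with moderated 2-sided tests, Benjamini-Hochberg adjusted over 23940 genes per comparison, with differences between time points as interactions. The exact permutation test used the 462 distinct 2-sided splits of 12 arrays. A bound ("at least") set the brighter group against the lowest signal well above background on each array of the dimmer group. It is approximate, since a spot above that signal can also fail to be well above background. Likeness was the Pearson r of deviations from group means. The number of arrays and the signal over background limit the precision. No source used here says whether labelling was repeated, so the spread between rats includes that of their arrays. The main fit treated arrays as independent, with no term for slide or scan date. The estimated correlation of arrays was 0.387 within a slide and 0.251 within a scan date. Shifts of slide or scan date can therefore enter the differences and p-values of the main fit. The fit was tested first on simulated data with independent noise on each array. The effect of slide and scan date on the calls of the main fit was not simulated.

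Another scaling moved the split of calls: at D1, 484 genes were called higher and 252 lower, against 292 and 830 with scaling to the 75th percentile (median of all genes -0.17) and 337 and 573 with the deposited log2 values.

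The 7 genes and the other lists were chosen with earlier results of these data known. Named were all 7 genes, at most 4 called genes per neutrophil list and time point by size of difference, Elane, Ltf, Lcn2, Cxcr2, Csf3 and Cebpe in any case, the 3 genes most like each member, and at most 3 called genes per marker list. Cd14, Fpr2l, Bpi and Defa5 were added after values were seen. Alternatives changed the scaling, background correction, filter, probe summary, model, blocks and threshold, and left out each rat in turn. Probe coordinates are those of the array files (rn4 by their headers), and gene positions and promoters are from RefSeq tables (GRCr8), where 7 and 6 of the 7 genes matched by symbol. The Fpr1 probe sequence is not reported here.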

Additional observations from a re-analysis of the deposited data

Results flagged for a closer look

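Within groups of 6 rats, the gap between an extreme rat and its nearest neighbour was compared with the range of the group. Of 42 groups (7 genes in 6 groups), 2 exceeded Dixon's critical value, and chance gives about 1 in 20, or 2.1. They were the Mpo level of vehicle rat 3 at D1, at 3.09, which was not well above background, and the Camp level of vehicle rat 4 at D180, at 8.97.

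The difference between DQ-12 and vehicle rats was compared between time points. The S100a9 difference was larger at D30 than at D1 by 1.54 and at D180 than at D1 by 2.17, and the S100a8 difference was larger at D180 than at D1 by 1.18 (limma interaction terms). These 3 contrasts use the D1 vehicle arrays, which were mostly scanned apart from the DQ-12 arrays. With slide or scan date as a fixed block none of the 3 was called, and with scan date as a random block the D30 against D1 call was lost.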

How the results depend on the processing

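The calls of the 7 genes were most sensitive to slide and scan date, which hold few rats of both groups. At D1 the 1 called gene became 0 with scan date as a fixed block, 2 with each time point fitted alone and 2 with array weights (Mpo joining Csf3r), and 1 to 2 when each rat was left out. At D30 the 2 called became 1 with scan date fixed (S100a8 at 1.00, adjusted p = 0.0585) and 1 to 3 with rats left out. At D180 the 3 called became 0 with slide as a fixed block, where S100a9 still differed by 1.96 (adjusted p = 0.0505), S100a8 by 0.49 and Csf3r by 1.04, and 2 to 3 with rats left out. Csf3r at D180 was 0.81 with normexp. Fpr1 at D30 passed the 2-fold limit with scaling to the 75th percentile (-1.03), with array weights (-1.13) and in 2 of 36 fits that left out a rat (its lowest value was -1.15), but with slide or scan date fixed it was -0.55 and -0.56 and lost its adjusted p (0.0877 and 0.135), as it did with each time point fitted alone (0.0845). Fpr1 at D180 lost it with slide or scan date fixed, with the replicate block (0.0810), with array weights (-0.45, 0.0946) and in 7 of 36 fits that left out a rat.

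Of the other neutrophil genes, 6 were called at D1, against 1 with slide fixed, 1 with scan date fixed and 13 with no fold limit, and 6 to 7 with rats left out. At D30 the 8 became 4 with slide fixed, and 6 to 10 with rats left out. At D180 the 18 became 11 with normexp, 4 with slide fixed and 28 with no fold limit, and 17 to 19 with rats left out.

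The 1 gene whose difference changed from D1 to D30 was lost (0) with slide or scan date fixed and with scan date as a random block, and stayed at 1 in every fit that left out a rat. The 2 from D1 to D180 became 0 with slide or scan date fixed, and 1 with probes averaged, with slide or scan date as a random block, with array weights and in some fits that left out a rat (1 to 2). From D30 to D180 the count was 0 throughout. The 5 called level differences between days became 1 with normexp, 2 with the filter on spots well above background and 1 with scan date as a random block, and 4 to 5 with rats left out. They could not be fitted with fixed blocks.

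Whether replicate numbers pair the rats was not settled. Of 6 same-numbered pairs, the deviations correlated above 0.1 in 1, 2 and 3 at D1, D30 and D180. The same-numbered DQ-12 rat was the best match of the vehicle rat in 1, 1 and 3, and the highest r at D180 was 0.216. With replicate number as a block the members called stayed at 1, 2 and 3, the other neutrophil genes at 6, 8 and 18, and the D1 to D180 count became 1.

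Values without a call that changed sign were Mpo at D30 (0.035 with the deposited log2 values, 0.067 with normexp, 0.33 with array weights, -0.40 to 0.21 with a rat left out), Mpo at D180 (-0.80 to 0.49 with a rat left out), Camp at D180 (-0.071 with probes averaged, -0.55 with slide fixed) and Fpr2 at D180 (-0.99 with slide fixed, -0.013 with scan date fixed). The S100a9 minus S100a8 value at D1 was -0.47 with the second S100a8 probe. The causes were not tested. Signal near background limits Mpo and Fpr2.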
